A study of Mus musculus with 20 samples.

Results

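The genes encoded by mitochondrial DNA (mtDNA) were taken as all rows of the deposited count table whose gene name begins with mt-. The rule found 15 of 21844 genes, namely 13 genes for protein subunits and 2 for ribosomal RNAs. All 15 passed the filter on low counts, which kept 14359 genes (CPM, the counts scaled to a common library total of 1e+06, reaching 1 in 5 or more of 20 libraries). On the mouse GRCm38 assembly, GENCODE M21 lists 37 mtDNA genes, and the other 22, all transfer RNAs, have no row in the table used here.

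Mitochondria keep a small circular genome of their own, present in many copies per cell. It is transcribed by a dedicated polymerase (Polrmt) with the factor Tfam into long RNAs from both strands, which are cut into single transcripts largely at the transfer RNAs lying between the genes. The proteins it encodes are core subunits of respiratory complexes I, III and IV and of ATP synthase, and each complex also needs subunits encoded in the nucleus. Skeletal muscle is rich in mitochondria, and endurance training is known to raise their content.

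The study sequenced RNA from hindlimb muscle of mice and asked how loss of the clock factor BMAL1 in muscle and treadmill training act alone and together. Per the labels, all mice had the genotype Cre+:iMSBmal1 fl/fl, that is, a floxed Bmal1 gene and a muscle-specific Cre recombinase, so the controls carried both as well. Vehicle sedentary mice received vehicle and no exercise, and knockout sedentary mice were iMSBmal1KO without exercise. Vehicle trained and knockout trained mice had exercise training, given in the study's design as daily running over 6 weeks. There were 5 libraries per group, and no age, sex or agent that switches on the Cre is given in the sources used here. The sample time is 48 hours in the labels, and the series design has 47 hours after the last bout. The labels name both the gastrocnemius and the tibialis anterior. Nothing in them says that the libraries of a group came from separate mice, so p-values measure the spread between these libraries, which may be in part technical.

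Library totals lay between 10610333 and 19153527 estimated counts. Knockout trained libraries 1 and 4 differed at high counts by only 1.25 times the noise of the same pair at low counts, and libraries 3 and 5 by 0.873 times. Each pair was counted as 1 sample, which gives n = 3 in the knockout trained group and 18 samples in all. Outside their pair, knockout trained libraries 1 and 4 were nearest to knockout sedentary library 4, whereas libraries 3 and 5 were nearest to knockout trained library 2. The target gene Arntl (Bmal1) was no lower in knockout sedentary samples, at 13.2 ± 3.28 CPM (SD, n = 5). Vehicle sedentary samples had 6.79 ± 0.890 CPM (SD, n = 5). Knockout trained samples were at 10.9 ± 4.45 CPM (SD, n = 3), with 8.04 CPM as the lowest value. Whether the floxed part of the gene was lost was not tested, since counts per gene do not separate its exons. The Arntl value of 132 CPM in vehicle trained library 2 set that library apart, since the highest value elsewhere in its group was 6.68 CPM. That library also lay apart over all genes at high counts. It differed from its nearest library, vehicle trained library 4, by 171 times sampling noise, against at most 88.2 times for any pair without it. All directions below are therefore those of the libraries as labelled. Fibre markers fitted the labelled tissue, since 12 of 12 were detected and their summed level was between 58652 and 103176 CPM in every sample. In bulk RNA, fewer cells of a type and less RNA per cell cannot be told apart.

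The mtDNA genes together took between 14.1% and 22.8% of all counts in a library. The share was 16.9% ± 1.07 (SD, n = 5) in vehicle sedentary, 16.1% ± 1.53 (SD, n = 5) in knockout sedentary, 17.3% ± 3.45 (SD, n = 5) in vehicle trained and 18.05% ± 0.777 (SD, n = 3) in knockout trained samples. The ranges of all 4 groups overlapped. Vehicle trained samples spread most, from 14.1% in library 4 to 22.8% in library 3.

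Several members have near-identical nuclear copies, so their counts are uncertain. A search of the annotated nuclear transcripts found 11 copies (pseudogenes) of 9 members at 95% identity or more over at least 100 bases, and all 11 have a row in the count table. Of these copies, 7 lie on chromosome 1 and 3 on chromosome 2. The chromosome 1 copies matched mt-Co1, mt-Co2, mt-Atp6, mt-Co3, mt-Nd3, mt-Nd4l and mt-Nd4, and 5 of them were identical over the aligned bases. The first 72 bases of mt-Co3 (chrM:8607-8678, plus strand) and of its copy Gm28437 (chr1:24613900-24613971, minus strand) are shown because no read inside them can be assigned to one or the other. The same stretch of mt-Co1 (chrM:5328-5399, plus strand) and its copy Gm13340 (chr2:22589576-22589647, minus strand) is shown as the contrary case, with the bases that differ in capitals. Sequences are those of the GENCODE M21 transcripts on GRCm38.
mt-Co3: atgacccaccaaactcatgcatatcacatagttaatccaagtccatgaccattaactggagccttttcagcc
Gm28437: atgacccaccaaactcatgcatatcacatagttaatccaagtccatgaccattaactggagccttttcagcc
mt-Co1: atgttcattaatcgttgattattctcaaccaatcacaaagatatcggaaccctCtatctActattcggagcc
Gm13340: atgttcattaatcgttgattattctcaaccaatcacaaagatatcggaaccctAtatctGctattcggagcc
The count of Gm28437 was 98.4% to 99.9% of that of mt-Co3 in every sample. For mt-Co2 the copy Gm28661 stood at 78.7% to 99.02%, and for mt-Atp6 the copy Gm10925 at 58.8% to 98.1%. The copies of mt-Nd3 (Gm28438, 53.5% to 74.5%) and mt-Nd4l (Gm10222, 45.4% to 75.8%) were also high. By contrast Gm13340, which differs from mt-Co1 at 37 of 1545 aligned bases, was at 0.233% to 0.670% of mt-Co1. Near-identical copies of part of a gene were low as well. Gm28439, identical to mt-Nd4 over 876 bases (63.6% of the gene), was at 1.76% to 3.43% of mt-Nd4. Gm29216, 99.8% identical to mt-Co1 over 483 bases (31.3% of the gene), was at 0.417% to 1.01% of mt-Co1. For mt-Rnr1, mt-Rnr2, mt-Nd1, mt-Atp8, mt-Nd6 and mt-Cytb the search found no annotated copy. Nuclear sequence without an annotated transcript was not searched. The copies of mt-Atp6 and mt-Co2, the neighbours of mt-Atp8, leave such a stretch between them (chr1:24614651 to 24614885). Whether it holds mt-Atp8 was not tested. With the copies added, mtDNA genes took 17.3% to 28.0% of the counts.

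Members also overlap one another on the mtDNA itself. The end of mt-Atp8 and the start of mt-Atp6, both parts of ATP synthase, share 43 bases (chrM:7927-7969), shown here in capitals within their surroundings (chrM:7903-7993, plus strand) as the longest overlap among members.
mt-Atp8 and mt-Atp6: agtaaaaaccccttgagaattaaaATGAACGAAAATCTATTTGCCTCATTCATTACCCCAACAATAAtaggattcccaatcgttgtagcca
The pair mt-Nd4l and mt-Nd4, of complex I, shares 7 bases on the same strand, and mt-Atp6 and mt-Co3 share 1. The genes mt-Nd5 and mt-Nd6 share 14 bases on opposite strands. Because no source used here says whether the libraries kept strand, counts of mt-Nd6, the only member annotated on the minus strand, cannot be told apart from reads of the opposite transcript.

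Per length, levels differed widely among the members. Over 18 samples, mt-Co1, a catalytic subunit of complex IV, had the highest level per kilobase at 29627 ± 3996 CPM per kb (SD). It was followed by mt-Co3 of complex IV at 21610 ± 3831 CPM per kb (SD, n = 18) and by mt-Cytb, the mtDNA-encoded subunit of complex III, at 16941 ± 2409 CPM per kb (SD, n = 18). The levels of mt-Cytb, mt-Atp6 (16869 CPM per kb) and mt-Nd1 of complex I (16838 CPM per kb) differed by less than their spread. The lowest levels per kilobase were those of mt-Nd4l (2613), mt-Nd6 (3080) and mt-Rnr1 (3090). The 12S ribosomal RNA (mt-Rnr1) and the 16S ribosomal RNA (mt-Rnr2, 4666 CPM per kb) were thus below most of the mRNAs. Both are parts of the mitochondrial ribosome, and how the libraries treated ribosomal RNA is not given in the sources used here. Adding the nuclear copies changed the order, with mt-Co3 first at 43047 CPM per kb, mt-Atp6 the next at 30185 and mt-Co1 after it at 29957.

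**Figure D1:**
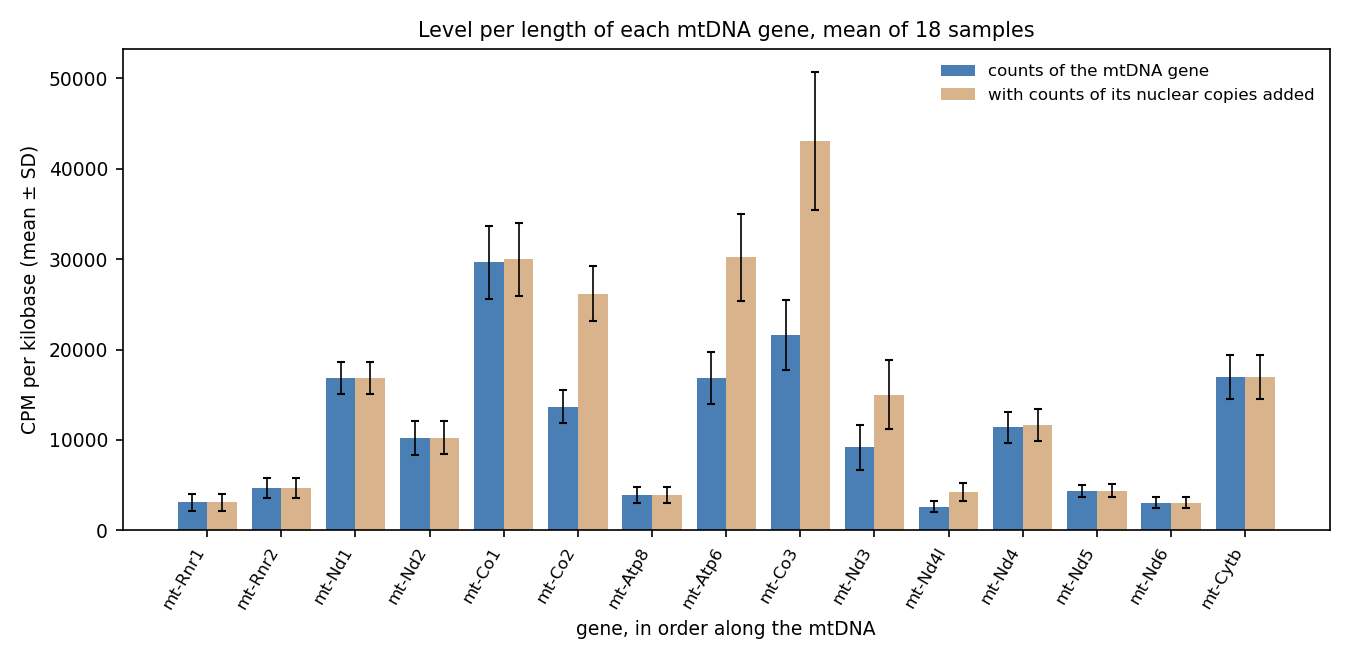
Level per length of the 15 mtDNA genes (CPM per kilobase, mean ± SD of 18 samples), in order along the mtDNA, from the gene's own counts (blue) and with the counts of its nuclear copies added (tan). Adding the copies raised mt-Co3 from 21610 to 43047 CPM per kb and left mt-Cytb at 16941.

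Training was compared first in vehicle mice. The 2 ribosomal RNAs were higher in every trained sample than in any sedentary one, and the mRNAs as a whole were not. By edgeR's quasi-likelihood test 0 of 15 members passed an adjusted p of 0.05, as did 0.0% of the 14359 genes, so no member is called changed. At an unadjusted p under 0.05 there were 4 members, all higher (mt-Rnr1, mt-Rnr2, mt-Atp6 and mt-Nd3), against 10.5% of all genes in that direction. DESeq2 called 1 member (mt-Rnr1, adjusted p = 0.0459) where it called 0.104% of all genes, and limma called 0.

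In vehicle sedentary libraries 1 to 5, mt-Rnr1 was at 2135, 2228, 2663, 2788 and 2592 CPM. In vehicle trained libraries 1 to 5 it was at 4357, 4257, 4443, 3662 and 3576 CPM. All 5 trained values lay above all 5 sedentary values, and the library that stood apart, number 2, was in the middle of its group. The log2 change was 0.76 ± 0.19 (SE), a 1.70-fold higher level, with an edgeR adjusted p of 0.272 and an unadjusted rank of 17 among the 14359 genes.

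The 16S ribosomal RNA followed the 12S. Vehicle sedentary libraries 1 to 5 had mt-Rnr2 at 6300, 6390, 6855, 7160 and 6404 CPM, and vehicle trained libraries 1 to 5 at 9073, 11119, 10759, 8263 and 8427 CPM. The groups again did not overlap, and the log2 change was 0.58 ± 0.17 (SE; edgeR adjusted p = 0.272). These were 2 of the 36 genes that were higher without overlap in this comparison, which is 0.251% of the genes tested. In either direction 428 genes (2.98%) were free of overlap, 392 of them lower, so the share depends strongly on the direction. The ribosomal RNAs made up 5.38% ± 0.420 (SD, n = 5) of mtDNA counts in vehicle sedentary and 8.02% ± 1.53 (SD, n = 5) in vehicle trained samples. Without vehicle trained library 2 the log2 changes were 0.73 for mt-Rnr1 and 0.51 for mt-Rnr2.

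Among the mRNAs, mt-Nd3, a small core subunit of complex I, differed most. It was at 2378, 2695, 2921, 3403 and 2385 CPM in vehicle sedentary libraries 1 to 5 and at 4283, 3042, 4446, 2924 and 4311 CPM in vehicle trained libraries 1 to 5. The groups overlapped, since trained libraries 2 and 4 fell within the sedentary range. Its log2 change was 0.52 ± 0.21 (SE; edgeR adjusted p = 0.283). For mt-Atp6, the proton channel subunit of ATP synthase, the log2 change was 0.39 ± 0.16 (SE; edgeR adjusted p = 0.291), and it was 0.26 with the counts of its nuclear copy added. The other 11 mRNAs had log2 changes between -0.08 (mt-Co1) and 0.27 (mt-Atp8 and mt-Co3).

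The most abundant mRNA, mt-Co1, shows the spread against which these values are read. It was at 45904, 47268, 50355, 47236 and 52486 CPM in vehicle sedentary libraries 1 to 5. In vehicle trained libraries 1 to 5 it was at 42202, 34424, 60003, 35739 and 49362 CPM. Trained samples lay on both sides of the sedentary range, and the log2 change was -0.08 ± 0.16 (SE). The same held for mt-Cytb, with 17552 to 22596 CPM in vehicle sedentary and 14578 to 26412 CPM in vehicle trained samples (medians 17790 and 17457 CPM). Over the 13 mRNAs the median log2 change was 0.04, beside 0.03 over all genes tested.

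Other measures moved beside the ribosomal RNAs in this comparison. Macrophage markers were all positive in log2 change (7 of 7, range 0.90 to 1.87, 7 at an unadjusted p under 0.05 and 0 past the adjusted threshold by edgeR). Their summed level was 53.7 to 224 CPM in vehicle sedentary and 155 to 390 CPM in vehicle trained samples, and no marker of the list was at 0 in all libraries of a group. Slow-fibre markers were negative (9 of 9, median log2 change -0.43, 0 past the threshold). Adipocyte markers were positive for 6 of 7 (median 0.97) and blood markers for 5 of 5 tested (median 0.55), with 0 past the threshold. Summed adipocyte markers were at 225 to 470 CPM (median 331) in vehicle sedentary and 172 to 1094 CPM (median 289) in vehicle trained samples. Their median was thus not higher with training. Summed blood markers were at 370 to 864 CPM and 514 to 2051 CPM in the same groups. The part of all these markers in the ribosomal RNA difference was not tested. The nuclear 18S ribosomal RNA (Rn18s) did not move with mt-Rnr1 across samples (Pearson r = 0.04 and Spearman rho = 0.02 of log2 CPM, n = 18). Rn18s was at 14868 ± 2691 CPM (SD, n = 5) in vehicle sedentary and 17250 ± 7558 CPM (SD, n = 5) in vehicle trained samples.

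**Figure D2:**
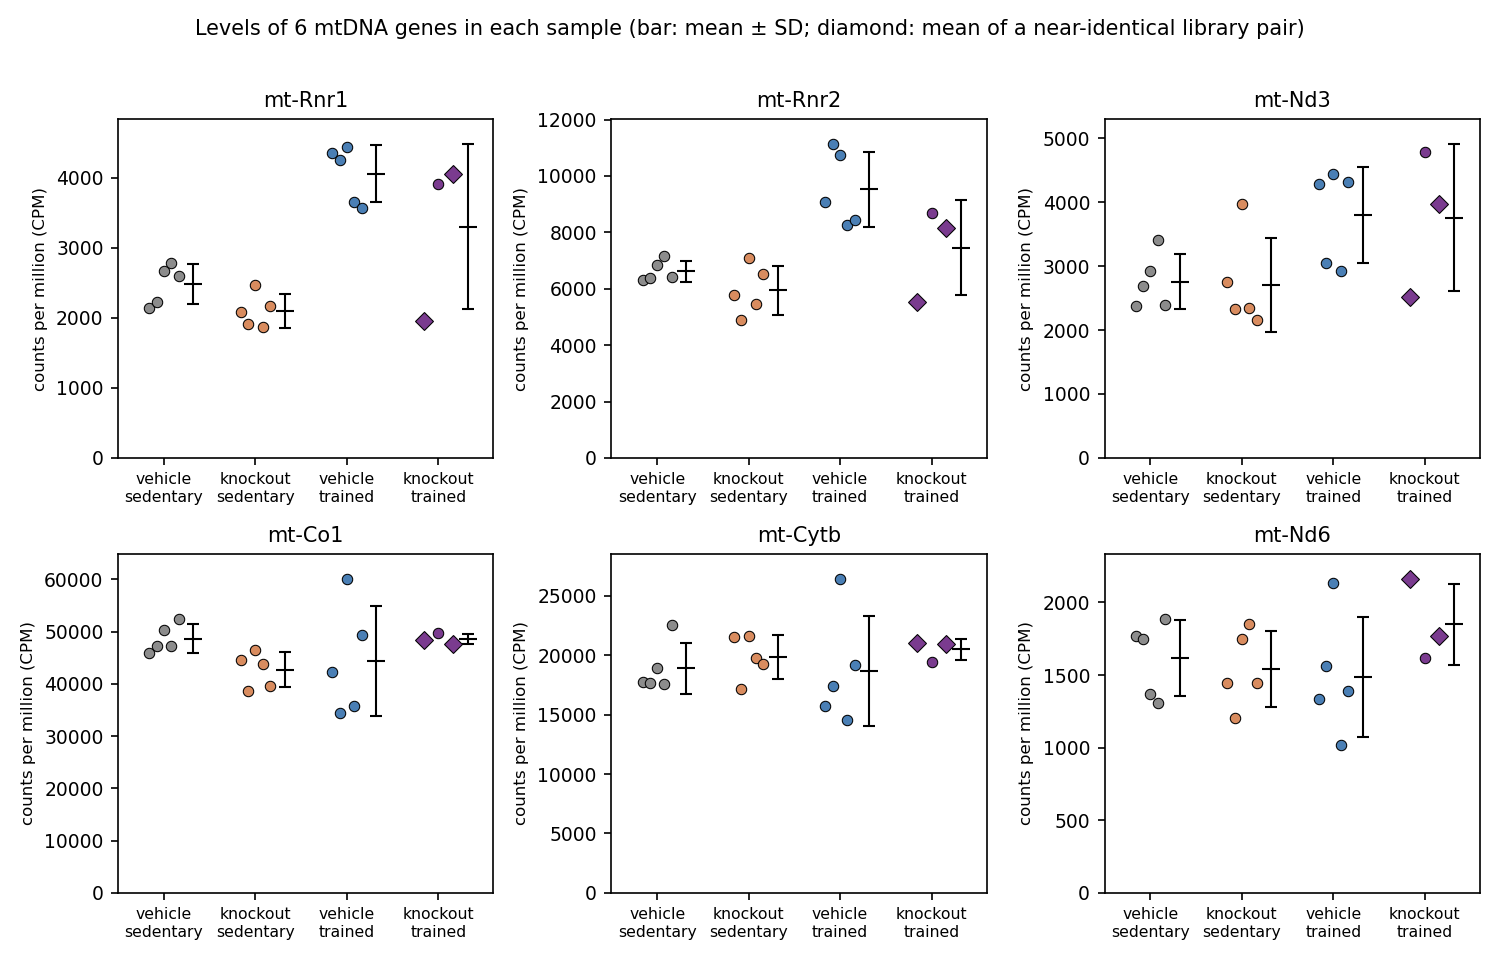
Levels in CPM of mt-Rnr1, mt-Rnr2, mt-Nd3, mt-Co1, mt-Cytb and mt-Nd6 in the 18 samples of the 4 groups. Points are samples, diamonds are near-identical library pairs averaged to 1 sample, and bars give mean ± SD. The vehicle trained samples of mt-Rnr1 (3576 to 4443 CPM) lie above all vehicle sedentary samples (2135 to 2788 CPM), and 1 knockout trained sample, the pair of libraries 1 and 4, lies at the sedentary level (1953 CPM).

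In mice labelled knockout, training went with positive log2 changes of all 15 members, none past the test. edgeR called 0 of 15 members and 0.0% of all genes, limma called 0 members, and DESeq2 called 1 (mt-Rnr1, adjusted p = 0.0123) where it called 1.38% of all genes. At an unadjusted p under 0.05 there were 4 members, all higher (mt-Rnr1, mt-Rnr2, mt-Co2 and mt-Nd3), against 7.12% of all genes in that direction. The median log2 change of the 13 mRNAs was 0.33, beside -0.02 over all genes tested. Scaled by library totals without TMM, all 15 were still positive, the median of the mRNAs was 0.19 and that over all genes -0.15.

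The samples of this group did not behave alike. In knockout sedentary libraries 1 to 5, mt-Rnr1 was at 2078, 1911, 2473, 1875 and 2163 CPM. Knockout trained libraries 2, 3 and 5 had 3913, 3983 and 4117 CPM, while libraries 1 and 4, which count as 1 sample, had 1954 and 1952 CPM. Library 2 and the pair of libraries 3 and 5, which also counts as 1 sample, lay at the level of the vehicle trained group. The pair of libraries 1 and 4 lay within the knockout sedentary range. The log2 change over the 3 samples was 0.82 ± 0.21 (SE; edgeR adjusted p = 0.156).

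For mt-Rnr2, knockout sedentary libraries 1 to 5 were at 5793, 4898, 7081, 5444 and 6513 CPM. Knockout trained libraries 2, 3 and 5 were at 8692, 7973 and 8366 CPM, and libraries 1 and 4 were at 5493 and 5547 CPM. As for mt-Rnr1, the pair of libraries 1 and 4 fell inside the sedentary range and the other samples above it, and the log2 change was 0.48 ± 0.19 (SE; edgeR adjusted p = 0.400). The same pair was lowest of the 3 samples for mt-Nd3 (2511 CPM against 4782 and 3967) and mt-Co3 (14387 CPM against 21639 and 19307). It was highest for mt-Nd6 (2160 CPM against 1620 and 1769) and mt-Nd5 (9331 CPM against 7401 and 7534).

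Results in this comparison therefore rest on which samples are kept. Without the pair of libraries 1 and 4, edgeR called 3 members, mt-Rnr1 (log2 change 1.13, adjusted p = 0.00728), mt-Rnr2 (0.71, adjusted p = 0.0428) and mt-Nd3 (0.90, adjusted p = 0.0424), where 2.76% of all genes were called. The knockout trained group then held only library 2 and the pair of libraries 3 and 5, the samples with the higher values of these members. Without library 2 the edgeR adjusted p of mt-Rnr1 was 0.904 (log2 change 0.68), and without the pair of libraries 3 and 5 it was 0.852 (log2 change 0.62).

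Of the 15 members, 1 was higher without overlap between the knockout groups, against 2.09% of all genes in that direction and 11.9% in either. It was mt-Co1, at 44504, 38669, 46534, 43870 and 39618 CPM in knockout sedentary libraries 1 to 5. In knockout trained samples it was at 48436 CPM (libraries 1 and 4), 49650 CPM (library 2) and 47656 CPM (libraries 3 and 5). The 3 trained values stood just above the highest sedentary value, and the log2 change was 0.33 ± 0.19 (SE; edgeR adjusted p = 0.634).

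Macrophage markers did not share the pattern seen in vehicle mice, with 3 of 7 positive in log2 change and a median of -0.03. Adipocyte markers were positive (7 of 7, median log2 change 1.26, 0 past the threshold), as were 8 of 9 slow-fibre markers (median 0.51, 0 past the threshold). Blood markers were positive for 5 of 5 tested (median 0.98, 3 at an unadjusted p under 0.05, 0 past the threshold). Their part in the values of the mtDNA genes was not tested.

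Along the mtDNA, mt-Rnr1, which comes first, had the highest log2 change in both training comparisons. The next highest was mt-Rnr2 in vehicle mice (0.58) and mt-Nd3 in knockout mice (0.63). The genes mt-Nd1, mt-Nd2 and mt-Co1 had log2 changes of -0.01, 0.01 and -0.08 in vehicle mice and of 0.17, 0.26 and 0.33 in knockout mice. From mt-Co2 to mt-Nd3 the values were 0.14 to 0.52 in vehicle and 0.36 to 0.63 in knockout mice. From mt-Nd4l to mt-Cytb they lay between -0.06 and 0.04 in vehicle mice and between 0.15 and 0.40 in knockout mice, so the ranges of these stretches overlapped in the latter. No sample is shared by these comparisons, and across the 15 genes their log2 changes correlated at r = 0.86 (Pearson) and rho = 0.74 (Spearman), given as a description since the genes of one library are not independent. With the nuclear copies added, the log2 changes in vehicle mice were 0.05 for mt-Co2, 0.26 for mt-Atp6, 0.27 for mt-Co3 and 0.47 for mt-Nd3. For mt-Co2 the value without copies was 0.14, and both values had an SE of 0.14. In knockout mice mt-Co2 was at 0.40 with the copies and 0.43 without. The effect of how reads were divided between gene and copy was not tested. The interaction of training and label had 0 of 15 members past the threshold by edgeR, limma and DESeq2 (0.0% of all genes by edgeR and limma and 0.181% by DESeq2) and 0 at an unadjusted p under 0.05, against 7.49% of all genes. The interaction log2 changes ran from -0.10 ± 0.25 (SE) for mt-Rnr2 to 0.46 ± 0.30 (SE) for mt-Nd6. At these errors a dependence of the training values on the label was not detectable.

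**Figure D3:**
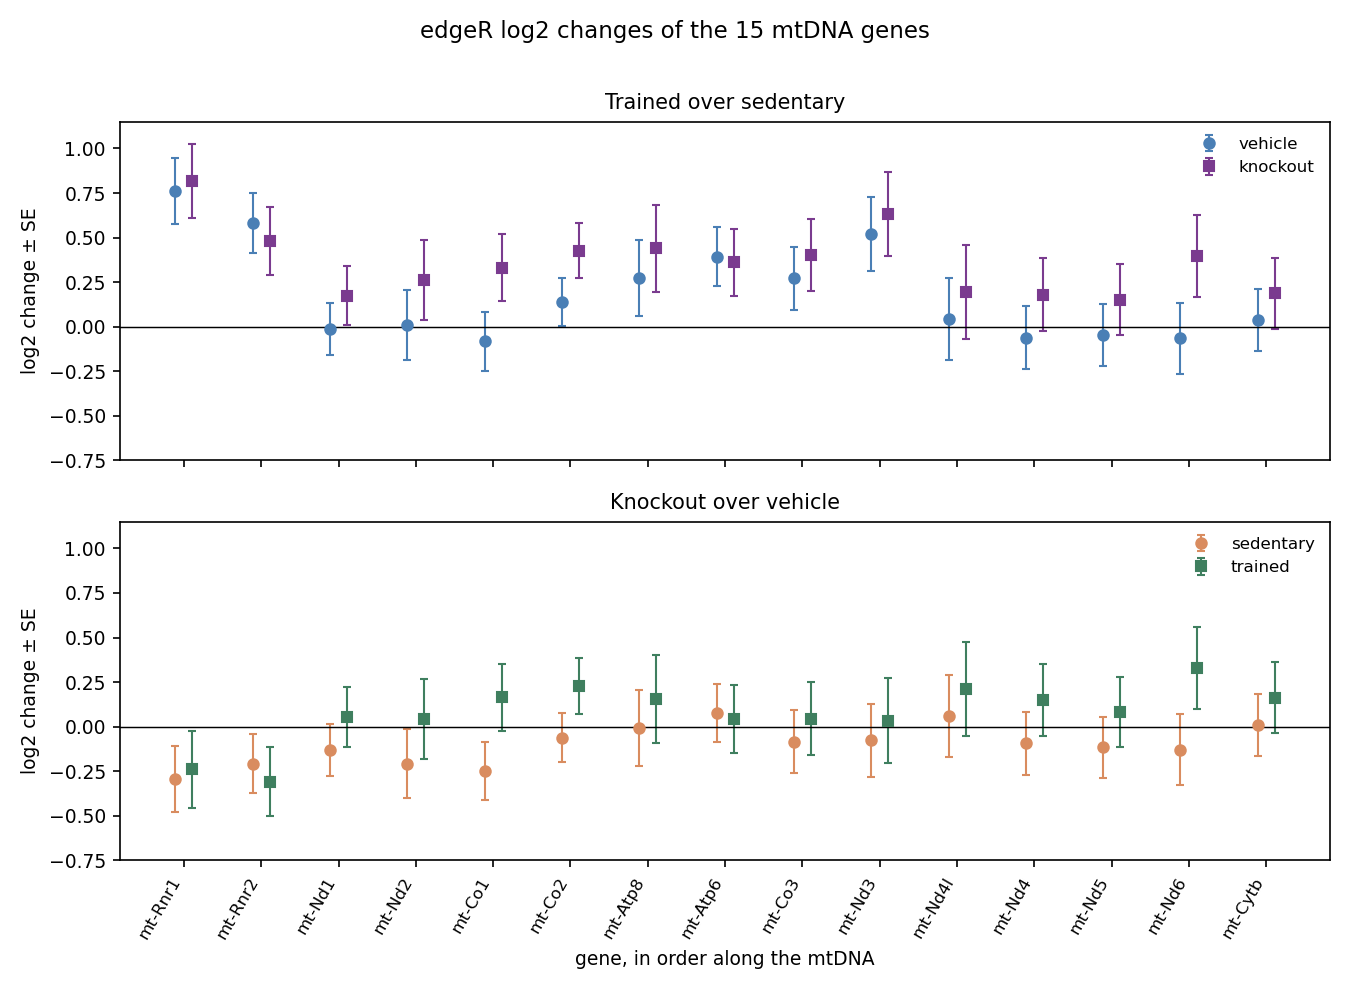
Log2 changes from edgeR with their standard errors for the 15 mtDNA genes in order along the mtDNA. The upper panel shows trained over sedentary in vehicle (circles) and knockout (squares) mice, and the lower panel shows knockout over vehicle in sedentary (circles) and trained (squares) mice. In the upper panel mt-Rnr1 (0.76 and 0.82), mt-Rnr2 (0.58 and 0.48) and mt-Nd3 (0.52 and 0.63) stand highest, and no gene passes the adjusted threshold in either panel.

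The label of Bmal1 knockout went with small values in sedentary mice. edgeR called 0 of 15 members, against 2.33% of all genes tested, and 0 members reached an unadjusted p under 0.05, against 9.81%. DESeq2 and limma called 0 members as well, where they called 3.74% and 2.37% of all genes. Log2 changes were negative for 12 of 15 members (positive for 4 when scaled by library totals) and ran from -0.29 ± 0.18 (SE) for mt-Rnr1 to 0.08 ± 0.16 (SE) for mt-Atp6. Over the mRNAs the median was -0.08, beside 0.01 over all genes. No member was free of overlap between these groups, where 9.4% of all genes were. The largest difference among the mRNAs was that of mt-Co1, at 48650 ± 2696 CPM (SD, n = 5) in vehicle and 42639 ± 3356 CPM (SD, n = 5) in knockout sedentary samples (log2 change -0.25 ± 0.16 SE, edgeR adjusted p = 0.783).

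In trained mice no member passed the test either. edgeR called 0 of 15 members, against 3.29% of all genes, and 0 reached an unadjusted p under 0.05, against 17.2%. DESeq2 and limma called 0 members, where they called 6.32% and 3.31% of all genes. All 13 mRNAs had positive log2 changes (0.03 to 0.33, median 0.15, beside -0.03 over all genes), and both ribosomal RNAs had negative ones. Scaled by library totals without TMM, 11 of the 13 mRNAs were positive. The values were -0.24 ± 0.21 (SE) for mt-Rnr1 and -0.31 ± 0.19 (SE) for mt-Rnr2. Without the pair of libraries 1 and 4 that of mt-Rnr1 was 0.07. No member was free of overlap, where 7.95% of all genes were.

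The highest of these values belonged to mt-Nd6, the complex I subunit read from the other strand. It was at 1767, 1750, 1370, 1310 and 1887 CPM in vehicle sedentary libraries 1 to 5, and at 1443, 1206, 1752, 1854 and 1448 CPM in knockout sedentary libraries 1 to 5. Vehicle trained libraries 1 to 5 had 1334, 1563, 2135, 1016 and 1389 CPM, and knockout trained samples had 2160 CPM (libraries 1 and 4), 1620 CPM (library 2) and 1769 CPM (libraries 3 and 5). All groups overlapped, and the knockout log2 change in trained mice was 0.33 ± 0.23 (SE; edgeR adjusted p = 0.481). Its share of all mtDNA mRNA counts was 0.929% ± 0.155 (SD, n = 5) in vehicle trained and 1.09% ± 0.198 (SD, n = 3) in knockout trained samples.

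Across the 18 samples some neighbouring members correlated closely (Pearson r of log2 CPM). This is given as a description without a test, since all genes of a sample share its library. The ribosomal RNAs correlated with each other at r = 0.95. The complex IV and ATP synthase genes mt-Co2, mt-Atp6 and mt-Co3 and their neighbour mt-Nd3 had pairwise r between 0.81 and 0.91. This set from mt-Co2 to mt-Nd3 leaves out mt-Atp8, which lies within the stretch. Its r was 0.47 with mt-Co2, 0.65 with mt-Atp6, 0.29 with mt-Co3 and 0.41 with mt-Nd3. The genes mt-Nd4 and mt-Nd5 of complex I and mt-Cytb had pairwise r between 0.86 and 0.90, and mt-Nd1, mt-Nd2 and mt-Co1 between 0.82 and 0.91. Between these trios r was 0.71 to 0.89, so they do not form separate sets. Between the ribosomal RNAs and the set from mt-Co2 to mt-Nd3 the median r was 0.61, whereas between the ribosomal RNAs and mt-Nd4, mt-Nd5 and mt-Cytb it was -0.11. Within groups (each gene centred on its group mean) these medians were 0.54 and 0.12. The genes mt-Nd4l, mt-Nd6 and mt-Atp8, which lie apart on the mtDNA, correlated with one another at a median r of 0.80, and with mt-Nd4, mt-Nd5 and mt-Cytb at a median of 0.71. With nuclear copies added, the median r within the set from mt-Co2 to mt-Nd3 was 0.81.

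The nuclear genes that serve mtDNA expression were read from lists. Of 11 tested genes for mtDNA transcription, 23 for processing and stability of its RNA, 14 for mtDNA maintenance and 13 for regulators of mitochondrial content, edgeR called 0 in each of the 5 comparisons. At an unadjusted p under 0.05, training in vehicle mice had 1, 6, 0 and 4 of them respectively, against 15.2% of all genes. The mtDNA packaging and transcription factor Tfam was at 38.7 ± 3.49 CPM (SD, n = 5) in vehicle sedentary and 34.6 ± 5.91 CPM (SD, n = 5) in vehicle trained samples. The polymerase gene Polrmt was at 24.6 ± 2.67 CPM (SD, n = 5) and 18.5 ± 3.14 CPM (SD, n = 5) in the same groups (log2 change -0.36 ± 0.14 SE, edgeR adjusted p = 0.283). The stability factors Lrpprc and Slirp, which act as a complex on mtDNA mRNAs, had log2 changes of opposite sign there, -0.35 ± 0.14 (SE) and 0.53 ± 0.20 (SE), with edgeR adjusted p of 0.283 and 0.274. The coactivator Ppargc1a, which promotes mitochondrial biogenesis, was at 73.6 ± 10.03 CPM (SD, n = 5) in vehicle sedentary and 162 ± 220.4 CPM (SD, n = 5) in vehicle trained samples, so its spread exceeded its mean in the latter.

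Respiratory chain subunits encoded in the nucleus were set beside the mtDNA-encoded ones. In trained mice the knockout comparison had 24 of 79 nuclear subunits past the edgeR threshold, all higher (median log2 change 0.50), and 0 of 13 mtDNA mRNAs (median 0.15), against 3.29% of all genes called. These calls depend on the fit. Over all genes edgeR called 473, but only 20 (11 higher) when only the groups compared were fitted, so the 24 cannot all be called there. Without knockout trained libraries 3 and 5 it called 177, and without vehicle trained library 2 it called 1244. In the same comparison slow-fibre markers were positive for 9 of 9 (median 0.82, 6 at an unadjusted p under 0.05, 0 past the threshold). Muscle fibre markers were positive for 11 of 12, with 2 past the threshold (Mb and Tnnc2), and macrophage markers for 0 of 7 (median -0.79, 0 past the threshold). Their part in the result was not tested. The called genes included 10 of 36 tested for complex I, 3 of 9 for complex III, 2 of 14 for complex IV and 6 of 16 for ATP synthase, the complexes that also hold mtDNA products. A further 3 of 4 were in complex II, which has none. Training in knockout mice had 0 of 79 called by edgeR, with a median log2 change of 0.62 for the nuclear subunits and 0.33 for the mtDNA mRNAs. The difference between nuclear and mtDNA subunits was not tested. Over 18 samples the mean log2 CPM of the mtDNA mRNAs and that of the nuclear subunits correlated at r = 0.16 (Pearson) and rho = 0.23 (Spearman), as a description.

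Among 8957 nuclear genes with a mean of at least 10 CPM, the likeness to the mean of the mtDNA mRNAs was measured by Pearson r of log2(CPM + 1) over 18 samples, with nuclear CPM taken over nuclear counts alone. Of the 10 highest, 7 were nuclear copies of mtDNA genes, led by Gm28661 (r = 0.82) and Gm10925 (r = 0.80). The other 3 were Phyh (r = 0.68), Bnip1 (r = 0.67) and Trappc1 (r = 0.66). Reads from stretches identical in member and copy cannot be assigned to either, so the r of the copies does not measure separate nuclear transcripts. The lowest values were those of Edrf1 and Vps26a (r = -0.71 for both).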

How the data were processed

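Per the labels, Trizol and column extraction gave the RNA, and an Illumina kit the libraries. The submitters' processing notes name Partek, STAR 2.7.8a and DESeq2 and the builds mm10 and GRCm39, with no role or order. The values deposited by the authors were read as estimated counts, although the table is named for CPM. The columns have different totals, 72.0% of values are whole, and no gene sums to under 10. Strandedness and the handling of ribosomal RNA are not given in the sources used here.

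Counts were rounded to whole numbers. Library pairs whose noise at 1000 to 10000 summed counts was under 1.5 times that at 10 to 100 were summed for tests and averaged for means. CPM are counts scaled to a library total of 1e+06, with no further scaling. Genes with at least 1 CPM in at least 5 libraries were tested with edgeR 4.0.16 (R 4.3.3) by its quasi-likelihood test, with TMM scaling and 4 group means, two-sided, adjusted by Benjamini-Hochberg over 14359 genes at 0.05. The design assumed counts. A log2 change is thus relative to TMM-scaled libraries and can differ from a ratio of mean CPM. Tested on simulated counts for training in vehicle mice (14359 genes), the fit recovered 65 of 100 genes changed by 1 and 93 of 100 changed by 2 on the log2 scale, with 6 false calls. The largest member change in that comparison was 0.76, below these sizes, so recovery at the sizes of the members was not tested.

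Nuclear copies were found with blastn 2.17.0 on GENCODE M21 transcripts (GRCm38), so coordinates are from that annotation and not from the authors' files. The members and gene lists were chosen with earlier results of these data known. All members were described. The most abundant ones, mt-Nd6 and the ribosomal RNAs were given by sample. Nuclear genes were named if past the threshold in a knockout comparison within the 4 lists of mtDNA expression (none were), from 5 preset symbols, or as the 10 most and 10 least like the mtDNA mRNAs. mt-Nd3 and mt-Atp6 were singled out after their values were seen. Alternatives were DESeq2 1.42.0, limma 3.58.1 on log2(CPM + 1), other scalings, no filter on low counts, only the groups compared, 20 separate libraries, a replicate block and leaving out each sample. Summing members with nuclear copies was added after seeing the data. Marker lists of 10 kinds (muscle fibre, fast and slow fibre, blood, adipocyte, Schwann cell, endothelial, macrophage, satellite cell and fibroblast) were read as summed CPM.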

Additional observations from a re-analysis of the deposited data

Results flagged for a closer look

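Within groups of 5 samples, 1 sample lay apart from the rest (by Dixon's gap test at its 95% critical value) in 4 of 78 groups tested, where chance gives about 3.9. In vehicle sedentary library 5, mt-Nd2 was at 13768 CPM (10251 to 10606 in the other samples of its group), mt-Nd4 at 19293 CPM (14998 to 15814) and mt-Cytb at 22596 CPM (17552 to 18956). In vehicle trained library 3, mt-Nd4l was at 1194 CPM, with 531 to 683 in the other samples of its group.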

How the results depend on the processing

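The number of called mtDNA genes stayed at 0 under every alternative in the knockout comparisons and the interaction. It was 1 under DESeq2 in both training comparisons (mt-Rnr1), and it ranged from 0 to 3 in the training comparison of knockout mice when each sample was left out in turn, the 3 coming without the pair of libraries 1 and 4; the cause was not tested. Without that pair the knockout log2 change of mt-Rnr1 in trained mice turned to 0.0736. With each sample left out, the medians of the mRNAs moved by less than 1 pooled within-group SD of their mean log2 CPM per sample. That SD is not the error of a difference between groups. The medians ran from -0.15 to -0.03 and from 0.04 to 0.29 (knockout in sedentary and trained mice), from -0.15 to 0.14 and from 0.30 to 0.37 (training in vehicle mice, where the sign changed, and in knockout mice) and from 0.10 to 0.37 (interaction). Under the other alternatives they ran from -0.11 to -0.03, 0.12 to 0.20, -0.02 to 0.05, 0.19 to 0.34 and 0.09 to 0.25 in the same order; scaling by library totals gave -0.03, 0.12, -0.02, 0.19 and 0.09. With nuclear copies added, the mtDNA share was 20.7%, 19.6%, 21.3% and 22.03% in the vehicle sedentary, knockout sedentary, vehicle trained and knockout trained groups, since their counts are added. Over protein-coding members alone it was 17.0% in the knockout trained group. Leaving out samples gave shares of 16.5% to 17.2%, 15.6% to 16.6%, 15.99% to 18.15% and 17.8% to 18.5% in the same order. Over all genes DESeq2 called 537, 907, 15, 198 and 26 genes in the knockout (sedentary, trained), training (vehicle, knockout) and interaction comparisons, where edgeR called 334, 473, 0, 0 and 0. Without vehicle trained library 2, edgeR called 1002, 1244, 0, 121 and 0 genes in the same order. It called 0 members in each, and for training in knockout mice its adjusted p of mt-Rnr1 was then 0.0556. Replicate numbers do not pair the samples: libraries of the same number correlated at a median r of 0.03 over 30 pairs, with 11 over 0.1. With 20 libraries and a replicate block, 0 members were called in each comparison, as without the block, and over all genes the block moved the calls of the training comparison in knockout mice from 49 to 0. With 3 samples in 1 group and 5 in the others, standard errors of members were 0.14 to 0.35 on the log2 scale, and values up to 0.82 did not pass the adjusted threshold.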

Other observations

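Fibroblast markers, which enter no comparison above, had positive log2 changes for 6 of 6 genes with training in vehicle mice (median 0.56) and negative ones for 6 of 6 in mice labelled knockout (median -0.32), with 0 past the edgeR threshold in either (2 and 0 at an unadjusted p under 0.05). Summed satellite cell markers were at 109 to 139 CPM in vehicle sedentary and 174 to 228 CPM in knockout sedentary samples, without overlap. Of all single genes, 5.63% were higher without overlap between these groups. Gene by gene, 4 of 5 tested satellite cell markers were positive in log2 change (range -0.02 to 0.89). By edgeR 1 had an unadjusted p under 0.05 and 0 passed the adjusted threshold. Summed blood markers ran from 429 to 2893 CPM among the 3 knockout trained samples, with 1 of 7 markers at 0 in all libraries of that group. Summed endothelial markers (173 to 286 CPM over all samples), Schwann cell markers (50.9 to 163 CPM) and fast-fibre markers (54228 to 91287 CPM) overlapped between groups.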
